A study of Mus musculus with 12 samples.

Results

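The livers of Fah knockout mice that were still protected by the drug NTBC were set against wildtype livers. The comparison used 4 of the 12 arrays of the series, chosen by their titles and source labels. The wildtype pair comprised 1 animal given water and 1 given NTBC. The knockout pair, both kept on NTBC, comprised 1 Fah knockout and 1 double knockout of Fah and p21. All mice were 10 weeks old, and the treatment time given for each, on water or NTBC, was 14 days. All 4 were hybridised to the 430A mouse array, and each was the liver of 1 mouse. The submitters titled all 4 of these livers normal. The other 5 arrays of that design were livers 14 days after NTBC withdrawal, 3 from Fah knockout and 2 from double knockout mice. A further 3 arrays of the larger 430 2.0 design held double knockout livers only, 1 on NTBC and 2 off it. The labels give no strain, sex, NTBC dose or allele design, and the source name was the only field that told the livers on NTBC apart.

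Fah, fumarylacetoacetate hydrolase, carries out the last step of tyrosine breakdown, and without it reactive metabolites build up in hepatocytes. NTBC blocks Hpd, an earlier enzyme of the same route, so that the toxic metabolites are not made while the drug is given. Loss of Fah with NTBC withdrawn is a mouse model of hereditary tyrosinaemia type I. The gene p21, Cdkn1a, encodes a cell cycle inhibitor that p53 induces after damage. The question was which transcripts still differed from wildtype while the drug was on board.

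The design set limits that touch every value. Both knockout mice received NTBC but only 1 of the 2 wildtype mice did, so the knockout group also differed in drug exposure, and the 2 knockout livers had different genotypes. A difference between the knockout livers therefore cannot be told apart as p21 loss or as a difference between single mice. In whole liver RNA, fewer cells of a type and less RNA per cell cannot be told apart. Albumin and the summed hepatocyte markers were at similar levels in all 4 livers, though single markers differed. In 8 of the 20 markers both knockout livers lay below both wildtype livers and in 4 above, against 18.8% and 38.2% of all genes. Albumin, Alb, gave signals of 17239.9, 17947.7, 18854.8 and 17061.1 in wildtype on water, wildtype on NTBC, Fah knockout and double knockout, the order used throughout, and the 20 hepatocyte markers on the array summed to between 205286 and 219884.

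Fah itself checked the labels. Its probe set 1417220_at read 6868.1 and 7120.1 in the wildtype livers and 181.9 and 233.0 in the knockout livers on NTBC. Knockout signals were 32.4-fold lower, a log2 change of -5.02 ± 0.17 (SE, 2 livers against 2), and the fall passed limma's moderated test across all probe sets with an adjusted p of 5.87e-07. The 5 livers off NTBC read lower still, from 100.8 to 114.2. Cdkn1a had 2 probe sets that told different stories. Probe set 1421679_a_at read 42.3, 17.5, 51.4 and 14.7, so the groups overlapped and the double knockout was close to the wildtype liver on NTBC. Off NTBC it separated the genotypes, with 989.5, 1861.5 and 1195.5 in the Fah knockouts and 9.5 and 8.2 in the double knockouts. Probe set 1424638_at read 126.0, 75.2, 227.1 and 257.7, and it stayed high in the double knockouts off NTBC at 1827.6 and 2059.6, so it did not report the loss of p21. Its change on NTBC was 1.23 ± 0.24 on the log2 scale and missed the threshold in limma (adjusted p = 0.0829). On NTBC, neither probe set could therefore check the p21 genotype.

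Few probe sets passed. Of 15307 tested, 23 passed at an adjusted p under 0.05 in limma, which is 0.15%. Of these, 11 were higher in the knockout livers on NTBC (0.0719%) and 12 were lower (0.0784%). With 1 representative probe set per gene, the one of highest mean signal, 16 of 9195 genes passed (0.174%), 8 in each direction (0.087% each). Without adjustment, 1996 probe sets (13%) were higher and 957 (6.25%) lower at p under 0.05. The count rested on single arrays: it was 1 without the wildtype liver on water, when the wildtype liver on NTBC was the only control, and 3 without the second Fah knockout off NTBC. Without the third Fah knockout off NTBC, which enters the fit only through the shared spread, it was 535 and included all 23.

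**Figure D1:**
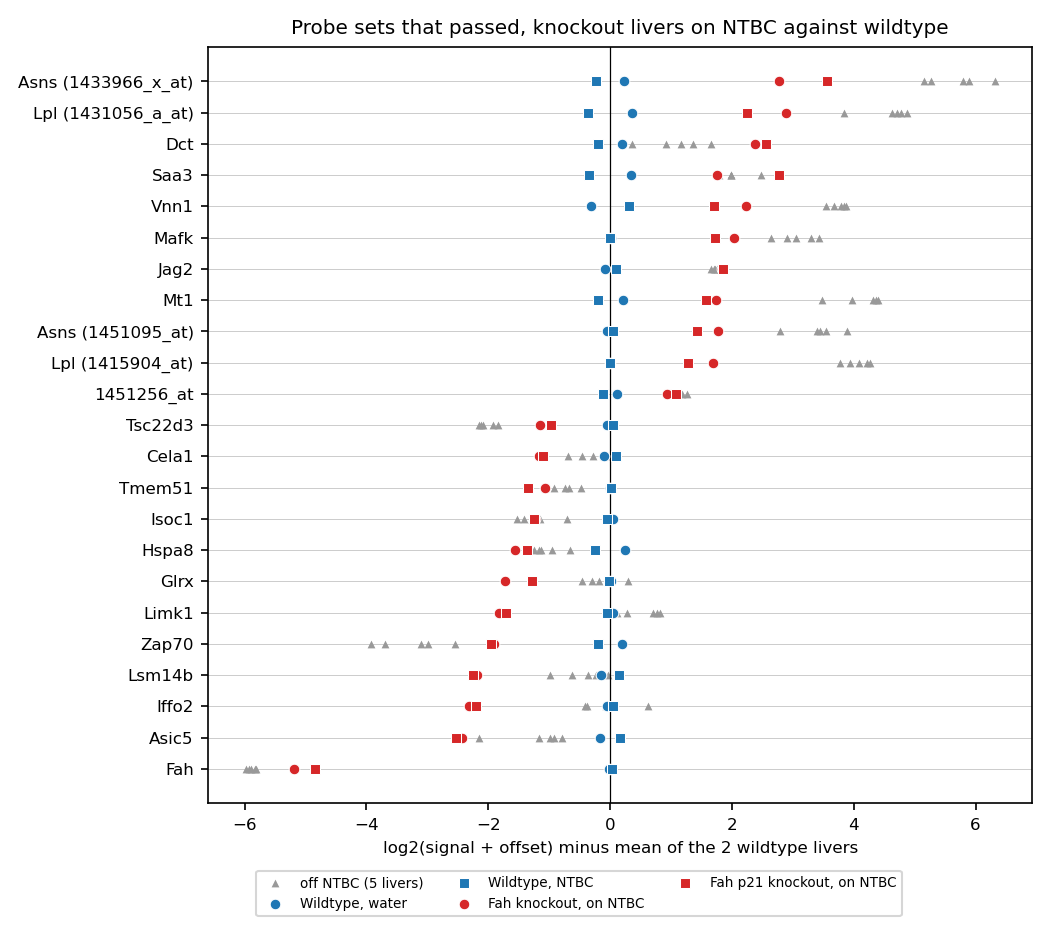
Each row is 1 of the 23 probe sets that passed, and the x axis is the log2 of signal plus offset minus the mean of the 2 wildtype livers. Blue marks are wildtype livers, red marks are knockout livers on NTBC and grey triangles are the 5 livers off NTBC. Red and blue marks do not overlap in any row, Fah lies farthest left at a mean of -5.02, and for Asns, Lpl, Vnn1, Mafk and Mt1 the grey triangles lie beyond the red marks.

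Genes of amino acid supply, lipid uptake and metal binding were among the 11 higher probe sets. Asns, asparagine synthetase, makes asparagine and is a target of the transcription factor Atf4. Its representative probe set read 227.1 and 244.0 in wildtype and 828.3 and 651.6 in knockout livers, 3.04-fold higher (log2 1.60 ± 0.23, adjusted p = 0.0387 in limma). A dimmer Asns probe set, 1433966_x_at, read 23.8, 14.5, 185.6 and 328.4. Both sets were higher again off NTBC, where the representative ranged from 1690.4 to 3634.9. Of the 22 tested genes of the Atf4 and serine synthesis list, Asns alone passed. The member with the next smallest p, the amino acid transporter Slc7a5, read 26.5, 27.7, 75.4 and 68.8 (adjusted p = 0.0853). Of the rest, the serine synthesis enzyme Phgdh read 466.9, 426.8, 538.2 and 489.0 and Atf4 itself 1094.5, 948.9, 917.5 and 898.7. The list's median was -0.12, against 0.13 for all 9195 genes, with -0.15 in the Fah knockout and -0.01 in the double knockout, and 0.04 without the wildtype liver on water.

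The upstream region of Asns is shown because Asns was the only member of the Atf4 list to pass. The window is the 250 bases before the annotated start at chr6:7693210-7693459, minus strand, build GRCm38.p6, from RefSeq. Capitals mark a match to TGATGAAAC, a C/EBP-Atf response element sequence, searched on both strands.
Asns: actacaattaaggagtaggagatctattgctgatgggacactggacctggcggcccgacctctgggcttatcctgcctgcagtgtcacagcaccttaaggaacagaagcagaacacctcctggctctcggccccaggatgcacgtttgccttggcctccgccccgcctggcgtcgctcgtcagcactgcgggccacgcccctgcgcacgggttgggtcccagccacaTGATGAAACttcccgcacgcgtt
Of 32851 such windows in the RefSeq table, 0.213% held these letters, and among the 20 genes of the list with a window Asns was the only one that did. The match was looked for after the values were known, and it describes the letters of this window only.

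Lpl, lipoprotein lipase, releases fatty acids from circulating lipoproteins and is scarce in healthy adult hepatocytes. Its representative probe set read 260.1, 258.2, 857.4 and 645.4, which was 2.8-fold higher in knockout livers (log2 1.49 ± 0.20, limma adjusted p = 0.0319). The dimmer set 1431056_a_at read 62.6, 34.3, 408.1 and 258.5. Off NTBC the representative reached 3673.4 to 5144.3, above all 4 livers. Vnn1, a pantetheinase induced by PPAR alpha, read 275.3 and 428.9 in wildtype and 1653.3 and 1141.7 in knockout livers, 3.91-fold higher (adjusted p = 0.0312), and 4124.3 to 5188.1 off NTBC. Vnn1 was the only one of 31 tested fatty acid oxidation and PPAR alpha genes to pass. Acot1, an acyl-CoA thioesterase of the same list, read 212.5, 289.1, 131.7 and 71.5, lower in both knockout livers without passing (adjusted p = 0.0846), and 1431.0 to 2217.2 off NTBC. The list's median was -0.15, with -0.06 in the Fah knockout and -0.19 in the double knockout, so Vnn1 did not stand for its list.

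Mt1, metallothionein 1, binds zinc and copper and is induced by metals, glucocorticoids and inflammation. It read 284.6 and 212.0 in wildtype, 847.8 and 752.2 in knockout livers and 2828.5 to 5366.3 off NTBC, with a 3.16-fold difference on NTBC (log2 1.66 ± 0.25, limma adjusted p = 0.0448). Its relative Mt2 read 377.6, 366.0, 645.3 and 731.2 and did not pass. Mafk, a small Maf protein that pairs with Nrf2, read 42.1, 41.6, 202.1 and 161.1 (3.68-fold, adjusted p = 0.0312) and 311.7 to 545.0 off NTBC. For all 5 of these genes the order was the same in every liver, with wildtype lowest, knockout on NTBC between and the livers off NTBC highest.

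A second pattern held for Saa3, Dct and Jag2, whose knockout levels on NTBC overlapped or exceeded the range off NTBC. Saa3, an inducible serum amyloid A of macrophages and other cells, read 134.3, 78.8, 372.2 and 761.8, 4.8-fold higher (log2 2.26 ± 0.35, limma adjusted p = 0.0481), and 381.2 to 618.6 off NTBC. Dct, dopachrome tautomerase of melanin synthesis, read 82.2, 59.8, 407.4 and 462.4, 5.54-fold higher (adjusted p = 0.0387), and only 92.5 to 243.1 off NTBC. Jag2, a Notch ligand, read 18.4, 22.2, 98.3 and 98.8, 3.6-fold higher (adjusted p = 0.0393), and 85.3 to 94.9 off NTBC. A second Jag2 probe set, too dim to be tested, read 21.4, 41.8, 19.3 and 25.6, and on the 430 2.0 array the first set read 16.2 in the double knockout on NTBC, so the rise of Jag2 rests on 1 probe set of 1 array design. The remaining higher probe set, 1451256_at, has no single gene in the platform annotation and read 357.7, 304.8, 639.6 and 712.6.

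Tsc22d3, a glucocorticoid-induced leucine zipper protein, fell by about the same amount in both knockout livers. It read 2410.1 and 2563.5 in wildtype and 1116.8 and 1269.7 in knockout livers, 2.08-fold lower (log2 -1.06 ± 0.14, limma adjusted p = 0.0319), and 549.1 to 687.1 off NTBC. A second set, 1425281_a_at, read 1716.6, 1737.4, 1056.6 and 915.9 without passing (adjusted p = 0.142), and the third, 1425557_x_at, overlapped at 332.7, 278.4, 257.7 and 296.8. In the list of 19 glucocorticoid and feeding responsive genes 6 lay above and 6 below wildtype without overlap, against 38.2% and 18.8% of all genes. The list's median was -0.16 (-0.12 in the Fah knockout and 0.01 in the double knockout), where all genes gave 0.13. Mt1 rose and Tsc22d3 fell, and the other 17 did not pass.

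Asic5 and Cela1 read lower in the knockout livers on NTBC than in any liver off it. Asic5, an acid-sensing family ion channel that bile acids open, read 728.4, 924.8, 143.2 and 133.2, 5.61-fold lower (log2 -2.49 ± 0.33, limma adjusted p = 0.0319), and 177.9 to 472.5 off NTBC. Cela1, a serine protease first known as an elastase, read 1691.0, 1946.1, 803.9 and 837.0 (2.2-fold lower, adjusted p = 0.0387) and 1122.8 to 1862.8 off NTBC. Of other pancreatic genes on the array, the carboxypeptidase Cpa1 read 2.9, 2.4, 2.5 and 3.2, the elastase Cela2a 63.4, 72.9, 40.9 and 77.9, and the trypsinogen Prss2 141.4, 134.5, 242.5 and 228.6 (adjusted p = 0.111). The part of pancreas RNA in the Cela1 values was not tested. Tmem51, a membrane protein, read 626.3, 634.4, 295.0 and 242.9 (2.31-fold lower, adjusted p = 0.0481) and 294.0 to 448.7 off NTBC.

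The other 3 representatives that fell had low signals, and off NTBC they lay nearer to wildtype. Iffo2, of the intermediate filament orphan family, read 115.2, 123.2, 15.9 and 18, 4.81-fold lower (limma adjusted p = 0.0319), and 87.2 to 189.5 off NTBC. Lsm14b, an RNA-binding protein, read 154.1, 193.1, 30.2 and 28.6, 4.64-fold lower (adjusted p = 0.0393), and 82.2 to 167.9 off NTBC. Limk1, a kinase of the actin regulator cofilin, read 130.1, 121.5, 28.2 and 31.7, 3.41-fold lower (adjusted p = 0.0481), and 137.4 to 228.7 off NTBC. Its other set, 1417627_a_at, went the other way at 4.6, 3.6, 16.5 and 13.6 (adjusted p = 0.252), so the 2 Limk1 sets disagreed.

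The last falls were seen in probe sets that are not their gene's brightest, and these were named after their values were seen. Glrx, the thiol reductase glutaredoxin, had 1416592_at at 1183.7, 1149.1, 346.9 and 472.1 (adjusted p = 0.0319 in limma), and its brighter set read 1120.9, 1083.3, 434.1 and 760.7 without passing (adjusted p = 0.139). Hspa8, the constitutive Hsp70 chaperone, had 1420622_a_at at 2208.5, 1556.9, 622.1 and 717.2, while its brightest set read 5445.8, 3409.4, 3100.9 and 2882.9 (adjusted p = 0.208). For Zap70, a T cell receptor kinase, 1422701_at read 537.6, 406.7, 117.4 and 113.1, but the brighter set read 592.1, 629.9, 937.3 and 822.1. Isoc1 disagreed in the same way, with 1425050_at at 1251.7, 1174.6, 512.4 and 502.8 and its 3 other sets higher in both knockout livers. The falls of Zap70 and Isoc1 are therefore uncertain as statements about those genes.

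A double knockout liver on NTBC with the same replicate number was also run on the 430 2.0 design, which had no wildtype array, and the labels do not say whether it came from the same mouse. Beside 2 double knockout livers off NTBC on each design, the sign of on minus off was the same on both designs for 20 of the 23 probe sets and opposite for Jag2, Limk1 and Lsm14b. The 430A value on NTBC is one of those that chose the probe sets, so this is a description. Mt1 read 1144.9 on NTBC and 7229.6 and 8272.3 off it on 430 2.0, and Vnn1 read 4251.5 on it against 9875.7 and 13344.0. Iffo2 read 90.0 on NTBC against 204.1 and 193.0, and Dct 618.0 against 70.0 and 180.5. Limk1, at 81.6 against 79.6 and 60.5, showed no such gap.

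**Figure D2:**
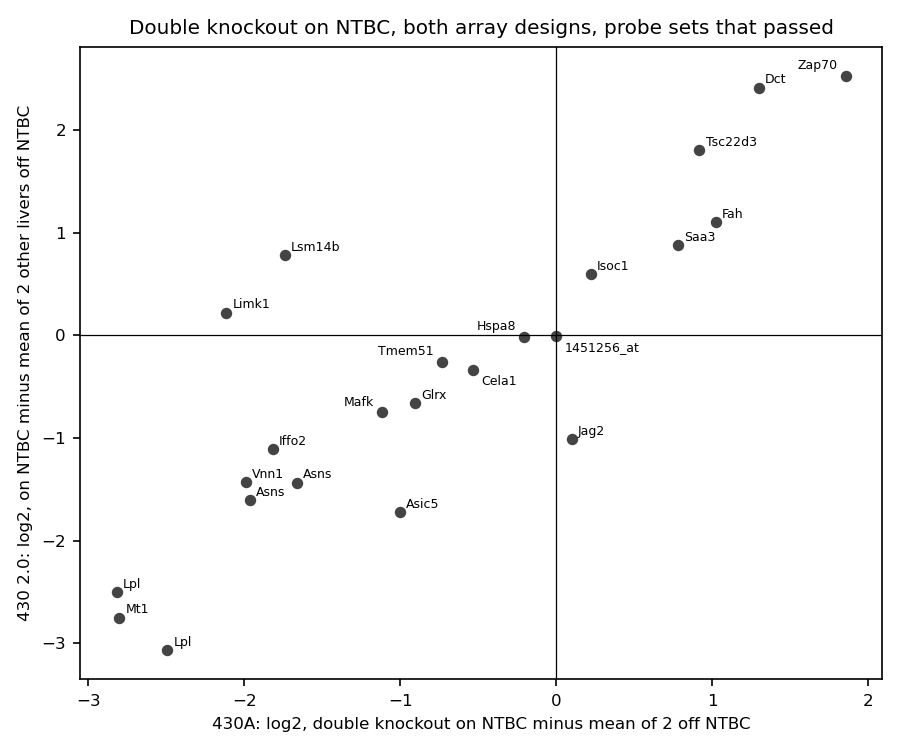
Each point is 1 of the 23 probe sets that passed, placed by the log2 difference between a double knockout liver on NTBC and the mean of 2 double knockout livers off NTBC on the 430A design (x axis) and on the 430 2.0 design (y axis), with different livers off NTBC on each. Lpl and Mt1 lie at the lower left on both designs, while Jag2, Limk1 and Lsm14b lie in quadrants where the signs differ.

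Enzymes of tyrosine breakdown around the missing step were described next. Of 13 tested members of the phenylalanine and tyrosine list, Fah fell and 12 did not pass. The homogentisate dioxygenase Hgd, which makes the substrate upstream of Fah, read 6948.3, 6948.3, 5217.3 and 4457.0 (log2 -0.53 ± 0.14, limma adjusted p = 0.131). Hpd, the target of NTBC, read 12551.8, 13285.5, 14060.7 and 12783.2, with overlapping groups. Tat, the first enzyme of the route, read 9415.1, 9035.8, 7167.1 and 5711.6, the transaminase Got1 read 4255.8, 5244.2, 3061.1 and 2080.2, and Gstz1, which acts just before Fah, read 4401.1, 4820.5, 3583.6 and 3314.3. These were lower in both knockout livers without passing, and all 5 were lower off NTBC, where Hpd read 5117.8 to 7607.8 and Tat 833.6 to 1835.0.

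Across whole gene lists, shifts were small and most members did not pass singly. A list is therefore described by its median log2 change and by how many members had both knockout livers outside both wildtype livers. Of all 9195 genes, 38.2% lay above without overlap and 18.8% below, with a median change of 0.13. The split depended on scaling: it was 17.2% above and 37.8% below, with a median of -0.11, when arrays were scaled to a common median, and 28.2% above and 24.6% below, with a median of 0.02, after quantile normalization. The list medians given here kept their sign under both, except where stated.

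Interferon response genes, which cells switch on against viruses, had the highest median of all lists. It was 0.68 over 22 genes, and 20 of them lay above wildtype without overlap against 38.2% of all genes, although none passed. The median was 0.44 with a common median and 0.58 after quantile normalization, with 19 and 20 genes above. The median was 0.58 in the Fah knockout and 0.84 in the double knockout, and wildtype on NTBC minus wildtype on water gave -0.13. Oas1a, a sensor of double-stranded RNA, read 214.0, 219.0, 340.2 and 457.1 (adjusted p = 0.0998 in limma). Gbp2, a guanylate-binding protein, read 54.4, 37.6, 112.0 and 119.9 (adjusted p = 0.109). The chemokine Cxcl10 read 61.8, 29.8, 119.7 and 131.5 and the immunoproteasome subunit Psmb8 read 309.8, 256.8, 435.6 and 832.6. At an unadjusted p under 0.05, 12 of the 22 were higher and none lower, against 13.1% and 5.48% of all genes.

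Upstream windows of Oas1a and Gbp2, the list's members of smallest p, are shown with matches to GAAANNGAA, the core of an interferon-stimulated response element, in capitals (both strands searched, overlapping matches allowed; a form with 1 more A at the end was searched too). The windows are chr5:120907526-120907775, minus strand, and chr3:142620413-142620662, plus strand, on GRCm38.p6 from RefSeq.
Oas1a: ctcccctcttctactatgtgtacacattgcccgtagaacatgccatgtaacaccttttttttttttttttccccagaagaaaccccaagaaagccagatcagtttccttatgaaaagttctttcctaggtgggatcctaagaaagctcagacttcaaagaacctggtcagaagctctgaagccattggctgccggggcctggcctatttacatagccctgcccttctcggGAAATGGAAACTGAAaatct
Gbp2: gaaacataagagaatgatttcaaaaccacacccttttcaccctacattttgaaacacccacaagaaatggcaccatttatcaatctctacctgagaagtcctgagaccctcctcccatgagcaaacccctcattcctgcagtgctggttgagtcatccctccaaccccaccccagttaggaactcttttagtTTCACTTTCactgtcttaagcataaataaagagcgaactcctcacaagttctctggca
Of the 19 interferon genes with a window, 12 held the motif, against 7.13% of all windows and 8.18% of all genes. The list was made of known interferon targets, so the share describes the list and not the change. The other motifs searched were TTATGTAA, TTACGTAA and CACGTG in the clock list, matched in 1, 0 and 4 of 25 genes, and TGCGCNC and TGCACNC in the acute phase list, matched in 2 and 3 of 25. Their shares among all windows were 0.819%, 0.113%, 6.02%, 12.5% and 10.4%.

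Antigen presentation genes and immune cell markers also had medians above that of all genes, with higher values in the double knockout. MHC genes had a median of 0.61 over 14 genes, with 0.28 in the Fah knockout and 0.91 in the double knockout, and none passed. Without overlap 10 lay above and 1 below, against 38.2% and 18.8% of all genes. With a common median 8 lay above and 2 below, against 17.2% and 37.8% of all genes. Cd74, the class II invariant chain, read 1095.5, 1161.8, 1816.5 and 3605.0 (adjusted p = 0.12 in limma), and H2-Eb1 read 932.1, 917.3, 1246.4 and 2033.3 (adjusted p = 0.17). By contrast H2-K1 read 9913.5, 9673.7, 10718.2 and 11756.5 and B2m 12177.1, 12849.3, 12406.7 and 12885.7, and the 3 largest changes of the list, 1.17, 0.88 and 0.86, were those of the class II genes Cd74, H2-Aa and H2-Ab1. Kupffer cell and macrophage markers had a median of 0.37, with 15 of 18 above and none below, and medians of 0.34 in the Fah knockout and 0.56 in the double knockout. With a common median 10 of these 18 lay above and none below. Cd5l, a macrophage secreted protein, read 1167.0, 1134.2, 1559.7 and 3318.9 (adjusted p = 0.142), and the cathepsin Ctss read 694.2, 657.0, 932.1 and 1500.2 (adjusted p = 0.141). The resident Kupffer cell lectin Clec4f overlapped at 970.9, 835.8, 792.5 and 1111.9, whereas the scavenger receptor Marco read 42.2, 31.8, 76.8 and 273.1.

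Summed signals of macrophage, lymphocyte and neutrophil markers were higher in both knockout livers, whereas those of erythroid markers were 5709.4 and 5365.0 in wildtype and 5205.3 and 5147.2 in knockout livers. MHC genes summed to 44205 and 42929.3 in wildtype, 44207.3 in the Fah knockout and 54252.5 in the double knockout, and cholangiocyte markers to 5389.2, 5021.7, 4886.8 and 6381.6. The 23 macrophage markers on the array summed to 8539.6 and 8800.3 in wildtype, 10622.6 in the Fah knockout and 15287.8 in the double knockout. Lymphocyte markers summed to 1724.1 and 1914.0 in wildtype and 2673.2 and 2589.3 in knockout livers, with a median of 0.57 over 11 tested genes. Of these 11, 8 lay above and 1 below without overlap, against 38.2% and 18.8% of all genes. The lymphocyte sum included the brighter Zap70 set, at 592.1, 629.9, 937.3 and 822.1, whereas the other Zap70 set fell. The pan-leukocyte phosphatase Ptprc read 105.2, 111.6, 185.9 and 258.2, while Cd3d, which defines T cells, read 3.6, 4.2, 13 and 12.2, near the floor. Other members too dim to be tested went both ways: Nkg7 read 8.2, 7.7, 45 and 43.8, and Gzmb 48.6, 56.6, 76.6 and 6.1. Neutrophil markers summed to 879.8 and 980.6 in wildtype and 1356.1 and 1771.1 in knockout livers, and Csf3r, the neutrophil growth factor receptor, read 48.5, 102.4, 188.6 and 217.1. Of 17 tested endothelial markers 10 lay above, with a median of 0.30, and the stellate cell median was 0.14. The latter was -0.08 in the Fah knockout and 0.36 in the double knockout, and -0.09 with a common median and -0.03 after quantile normalization. The part of these cells in the interferon and MHC values was not tested.

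**Figure D3:**
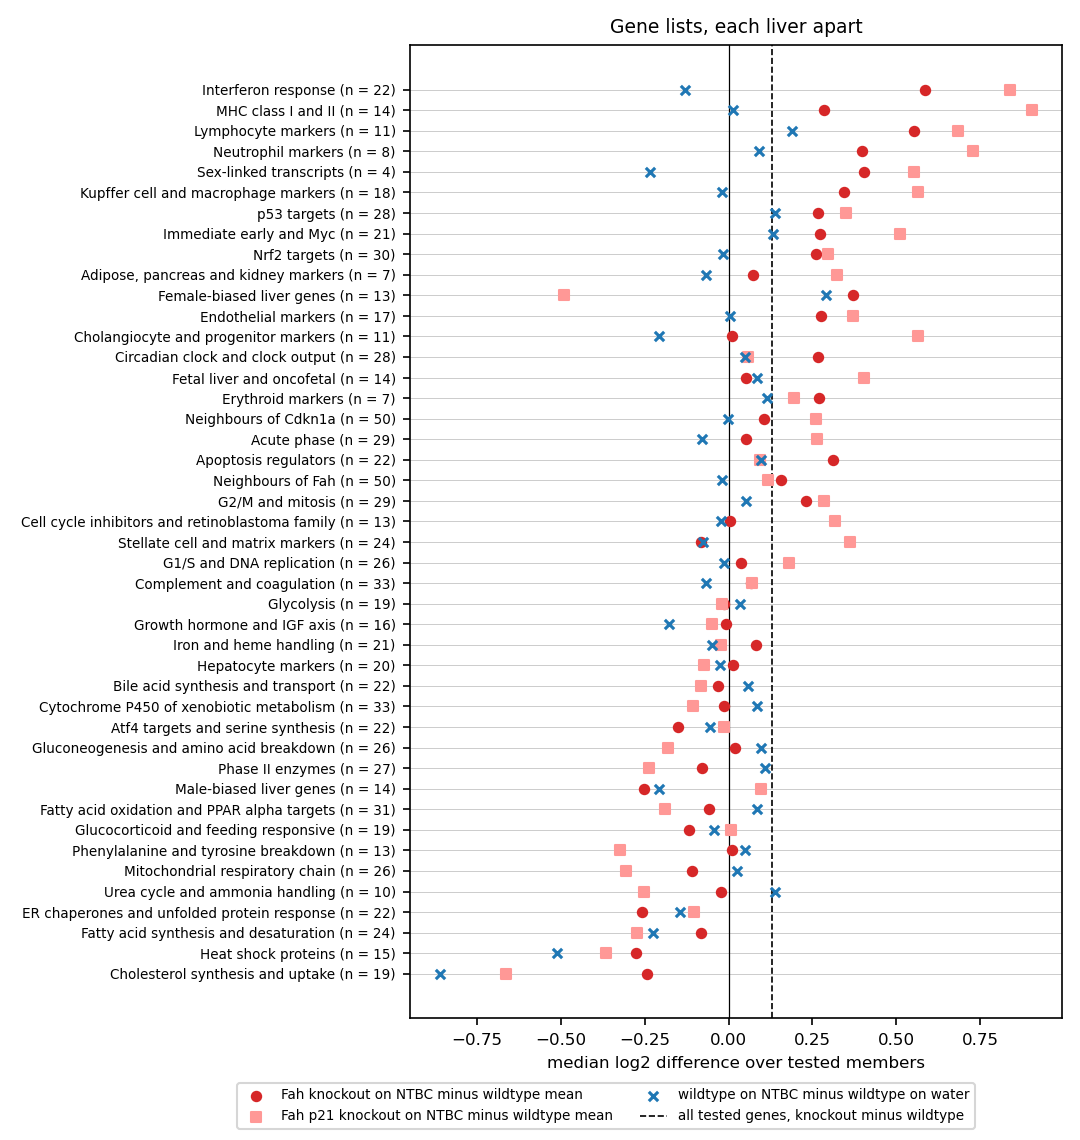
Rows are gene lists with the number of tested genes, and the x axis is the median log2 difference over those genes. Dark red circles are the Fah knockout and light red squares the double knockout, each minus the wildtype mean, blue crosses are wildtype on NTBC minus wildtype on water, and the dashed line is the median of all genes at 0.13. Interferon, MHC and immune cell lists lie at the top with both knockout marks to the right, while the heat shock and cholesterol lists at the bottom have blue crosses at -0.51 and -0.86.

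The circadian clock list lay near the background in its overlap counts only. Over 28 tested clock and output genes 12 lay above and 6 below without overlap, where all genes gave 38.2% and 18.8%, and Tsc22d3 was the only one to pass. The list's median was 0.29, where all genes gave 0.13, with 0.27 in the Fah knockout and 0.06 in the double knockout. At an unadjusted p under 0.05 in limma, 9 of the 28 were higher and 4 lower, against 13.1% and 5.48% of all genes. Dbp, a transcription factor with a strong daily rhythm in liver, read 359.6 and 458.2 in wildtype and 1491.1 and 907.9 in knockout livers on NTBC, 2.82-fold higher on the log2 scale of signal plus offset, and just missed the threshold in limma (log2 1.50 ± 0.25, adjusted p = 0.0631). Off NTBC it read 125.9 to 196.9. Some other members, picked after their values were seen, are given as values only. The Dbp relatives Tef, at 1302.9, 1267.5, 2218.7 and 1883.2, and Hlf, at 277.9, 321.5, 586.6 and 456.8, were higher in both knockout livers without passing, as were Per3 (66.5, 84.4, 151.8 and 130.7) and Nr1d1 (482.3, 605.6, 966.7 and 863.0). Arntl and Nfil3 were lower in both without passing: Arntl read 239.5, 252.2, 171.1 and 136.6 and Nfil3 read 197.9, 296.8, 75.7 and 161.9. The labels do not give the hour at which livers were taken.

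**Figure D4:**
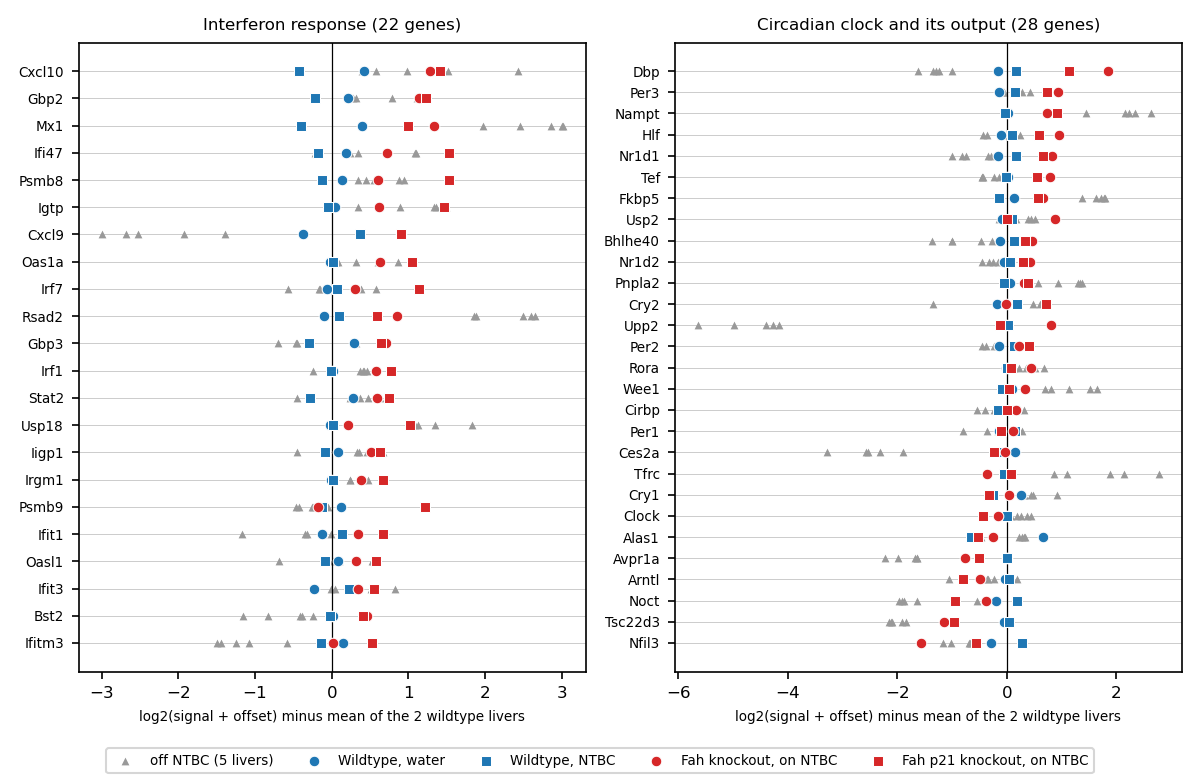
Rows are the 22 tested interferon genes (left) and the 28 tested clock and clock output genes (right), ordered by change, and the x axis is the log2 of signal plus offset minus the mean of the 2 wildtype livers, with marks as in the plot of probe sets that passed. On the left both red marks lie to the right of both blue marks in 20 of 22 rows. On the right the red marks of Dbp lie to the right of the blue ones and the grey triangles of the livers off NTBC lie to the left.

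No gene of the p53, Nrf2 or immediate early lists passed while NTBC was given. Of all genes, 38.2% lay above and 18.8% below without overlap. The p53 targets had a median of 0.37 over 28 genes, with 17 above, 3 below and none passing. The p53 inhibitor Mdm2 read 329.0, 243.1, 480.9 and 573.5 (adjusted p = 0.134 in limma) and 1041.1 to 1780.7 off NTBC, and Sesn2 read 105.7, 172.6, 262.9 and 251.1 (adjusted p = 0.109). Nrf2 targets, which detoxify oxidants and electrophiles, had a median of 0.35 over 30 genes, with 19 above and 5 below. The quinone reductase Nqo1 read 79.7, 127.3, 357.4 and 204.3 (adjusted p = 0.0989) and 1014.2 to 1616.2 off NTBC. Gsta4, which conjugates lipid aldehydes, read 617.8, 813.0, 1904.2 and 1000.0 (adjusted p = 0.123). Immediate early genes had a median of 0.37 over 21 genes, with 11 above and 3 below, and 0.27 in the Fah knockout and 0.51 in the double knockout. Egr1 read 107.7, 121.6, 296.4 and 332.2 (adjusted p = 0.0881) and Klf10 read 163.0, 192.4, 360.8 and 547.9 (adjusted p = 0.0846). With a common median the p53 and Nrf2 medians were 0.13 and 0.10. Under that scaling 9 p53 targets lay above and 5 below, and 7 Nrf2 targets above and 7 below. Of the 21 immediate early genes 9 then lay above and 3 below, where all genes gave 17.2% and 37.8%.

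Cell cycle genes stayed near the level of all genes. The G2/M list had a median of 0.19 over 29 genes, with 10 above and 3 below. The G1/S list had 0.13 over 26 genes, with 8 above and 4 below, where all genes gave 0.13, 38.2% and 18.8%. The G1/S median was 0.04 in the Fah knockout and 0.18 in the double knockout, and it was -0.07 after quantile normalization and -0.12 with a common median. Cyclin D1, Ccnd1, read 490.4, 407.6, 196.5 and 262.5 (log2 -0.95 ± 0.20, limma adjusted p = 0.0846). Off NTBC it read 1206.9 to 1477.5 in the Fah knockouts and 674.0 and 847.9 in the double knockouts. The mitotic ubiquitin ligase subunit Ube2c read 51.1, 39.0, 5.2 and 8.7 (adjusted p = 0.15), with the knockout signals at or under the offset of 9.9. Off NTBC it read 96.0 to 122.4 in the Fah knockouts and 349.1 and 1499.5 in the double knockouts. On the 430 2.0 array Ube2c read 104.4 in the double knockout on NTBC, against 1862.7 and 1952.1 off it.

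Lower medians lay in heat shock and cholesterol genes, and the wildtype liver on water set much of both. For the counts given here, all genes had 38.2% above and 18.8% below without overlap. Heat shock proteins had a median of -0.40 over 15 genes, with none above and 6 below, but it was -0.12 without the wildtype liver on water and -0.64 without the wildtype liver on NTBC, and wildtype on NTBC minus wildtype on water gave -0.51. Hsp90aa1 read 3330.8, 2144.3, 1576.1 and 1570.3 (adjusted p = 0.109 in limma) and Hsph1 1010.6, 490.2, 427.2 and 262.2 (adjusted p = 0.164). Cholesterol synthesis genes had a median of -0.45 over 19 genes, with 1 above and 10 below, and -0.16 without the wildtype liver on water. It was -0.95 without the wildtype liver on NTBC, and -0.24 in the Fah knockout and -0.66 in the double knockout alone. Mvk, mevalonate kinase, read 533.1, 256.2, 124.3 and 50.9 (adjusted p = 0.16), and Fdps, which makes farnesyl diphosphate, read 7175.4, 2905.2, 1593.0 and 1473.8 (adjusted p = 0.182). In contrast Hmgcs1, an early enzyme of the route, read 6457.2, 1997.2, 3856.5 and 1747.7, so the wildtype liver on NTBC lay between the knockouts.

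**Figure D5:**
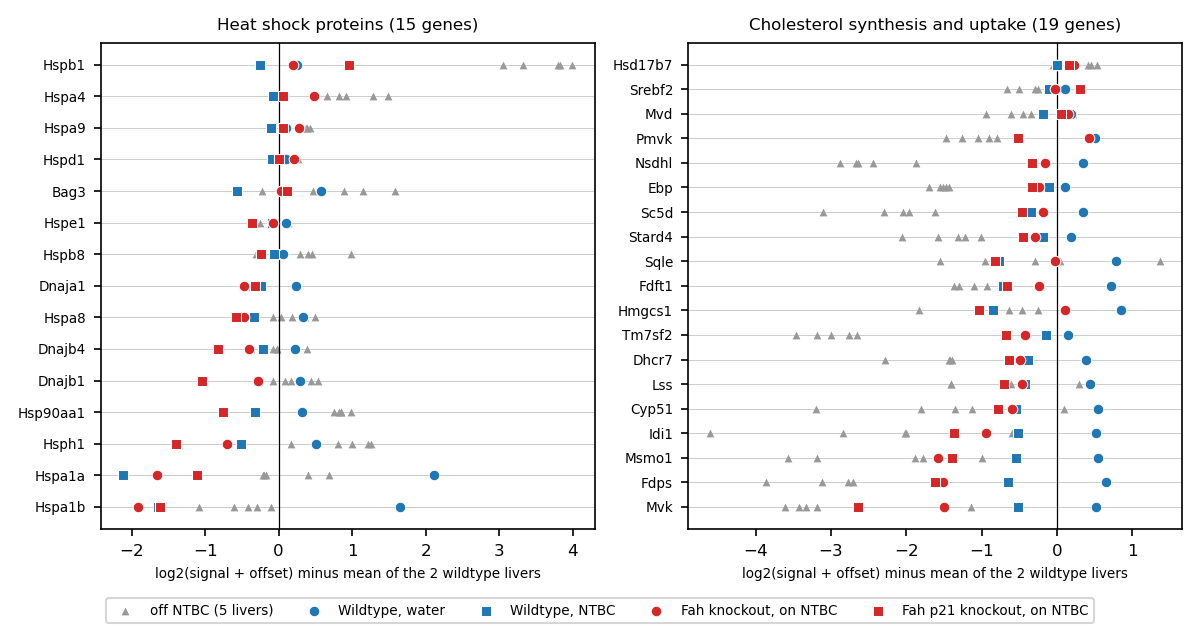
Rows are the 15 tested heat shock genes (left) and the 19 tested cholesterol genes (right), and the x axis is the log2 of signal plus offset minus the mean of the 2 wildtype livers. For Hspa1b, Hspa1a, Hmgcs1 and Sqle the blue circle of the wildtype liver on water lies to the right of every other mark among the 4 livers, and for Mvk, Fdps and Msmo1 both red marks lie to the left of both blue marks.

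Mitochondrial respiratory chain subunits had a median of -0.19 over 26 genes, with 15 below and 1 above, and none passed. The median was -0.11 in the Fah knockout and -0.31 in the double knockout. For this and the urea cycle counts, all genes gave 18.8% below and 38.2% above. Cyc1, of complex III, read 4995.6, 5393.8, 3784.9 and 3148.4 (adjusted p = 0.16 in limma). Among 24 fatty acid synthesis genes Acaca, which makes malonyl-CoA, read 68.6, 74.2, 197.7 and 148.8 (adjusted p = 0.119), whereas the elongase Elovl3 read 6438.0, 3634.3, 1018.8 and 2557.1 (adjusted p = 0.151) and 100.8 to 276.2 off NTBC. Of the 10 urea cycle genes 3 lay below and none above, but 3 lay below and 3 above after quantile normalization. The ornithine carrier Slc25a15 read 5199.7, 5750.6, 3733.3 and 3275.0 (adjusted p = 0.0846). Acute phase genes had a median of 0.20 over 29 genes, -0.04 with a common median, and 0.05 in the Fah knockout and 0.26 in the double knockout. Saa3 and Mt1 passed, while the pentraxin Apcs read 5565.6, 4497.0, 1742.1 and 2065.5 (adjusted p = 0.1). The lectin Mbl2 read 2023.3, 1957.5, 7192.1 and 5211.4 (adjusted p = 0.172).

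Several hepatocyte programmes had medians near 0. Hepatocyte markers had a median of -0.02 over 20 genes, cytochromes P450 of xenobiotic metabolism -0.05 over 33 and complement and coagulation 0.06 over 33, -0.19 with a common median, and none of their members passed. The hepatocyte and cytochrome P450 medians depended on scaling. They were 0.00 after quantile normalization, but -0.27 and -0.30 with a common median, when 14 of 20 and 18 of 33 genes lay below. Genes beside the targeted loci were also looked at, because chromosome segments from the embryonic stem cells can stay linked to a targeted gene. The 50 tested neighbours of Fah had a median of 0.19, with 20 above and 9 below, and the 50 of Cdkn1a 0.21, with 23 above and 13 below. All genes gave a median of 0.13, with 38.2% above and 18.8% below, so the counts for Fah lay near the background. With a common median both neighbour medians were negative, at -0.05 and -0.04, where all genes gave -0.11. In the Fah knockout the medians were 0.16 and 0.11, and in the double knockout 0.12 and 0.26. Ctsc, the dipeptidyl peptidase near Fah, read 1352.4, 1252.5, 2334.5 and 2922.7 (adjusted p = 0.0821 in limma).

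Pairs of single livers gave the scale of variation. The 2 wildtype livers differed at least 2-fold in 334 probe sets (2.18%) and the 2 knockout livers in 609 (3.98%). The Fah knockout differed from wildtype on NTBC in 816 (5.33%) and from wildtype on water in 915 (5.98%). The double knockout differed from them in 977 (6.38%) and 1107 (7.23%). Each pair is 1 mouse against 1 mouse, so no test was made.

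A few genes stood out in 1 liver by at least 4-fold from each of the other 3. The double knockout on NTBC had 2 such genes above and 2 below, 0.0218% of all genes each. Cyp2c37, a cytochrome P450 that acts on arachidonic acid, read 124.3, 138.9 and 137.3 in the other livers and 3125.6 in the double knockout, a gap of 21.1-fold. On the 430 2.0 array it read 7547.5 in that mouse group on NTBC and 477.6 and 271.5 off it. Cyp4a14, a fatty acid hydroxylase under PPAR alpha, read 557.9, 3042.5, 1094.3 and 58.0, and 94.2 on the 430 2.0 array against 7765.6 and 9771.5 off NTBC. Cd274, the immune checkpoint ligand, read 3.3, 8.1, 4.5 and 80.5. Both cytochromes thus stood apart in the double knockout on NTBC on both designs, beside livers off NTBC on the second, and the 2 arrays carry the same replicate number.

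The Fah knockout on NTBC had 3 genes above (0.0326%) and 6 below (0.0653%) by this measure. Serpinb1a, an inhibitor of neutrophil proteases, read 2.6, 5.2, 403.3 and 44.8, so both knockout livers were above wildtype (adjusted p = 0.0846 in limma). Abcd2, a peroxisomal fatty acid transporter, read 3.1, 6.0, 86.1 and 2.6, and 200.7 to 283.1 off NTBC. Obp2a, an odorant-binding protein, was lowest there at 69.9, against 924.9, 979.6 and 331.4, and read 53.2 to 86.1 off NTBC. Among the 4 livers, Stap1, Thop1 and Hspa2 were low in this one alone, at 12.6, 14.5 and 22.9, but Stap1 also read as low as 14.4 off NTBC.

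Wildtype livers had their own outlying genes. On water, the inducible heat shock genes Hspa1b and Hspa1a read 3541.7 and 409.6, against 290.7 to 358.8 and 12.4 to 34.9 in the other livers, and the tubulin Tubb6 read 71.3 against 6.8, 8.2 and 10.3. Fv1, a retrovirus restriction gene, was low there at 4.9, against 64.1, 78.6 and 99.0. These were 3 genes above (0.0326%) and 1 below (0.0109%). On NTBC, Nr5a1 read 26.7, against 155.9 to 191.0, and Inhba, an activin subunit, 29.0, against 154.5 to 332.3. Hspa1b and Hspa1a thus differed more between the wildtype livers than between wildtype on NTBC and either knockout.

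Of 4 tested sex-linked transcripts 3 lay above wildtype in both knockout livers and none below, and none passed. Kdm5d, on the Y chromosome, read 70.0, 50.6, 112.3 and 114.4 (adjusted p = 0.162 in limma). Xist, made by the inactive X chromosome, read 125.1, 94.2, 160.4 and 184.3, and the Y-linked Eif2s3y read 344.6, 321.7, 315.7 and 363.5, with Uty at 116.8, 116.1, 144.3 and 156.4. Lists of sex-biased liver genes had medians of opposite sign in the 2 knockout livers. The 13 tested female-biased genes had a median of 0.37 in the Fah knockout and -0.49 in the double knockout, and the 14 male-biased genes -0.25 and 0.10. None of either list passed, and each value is that of 1 mouse.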

How the data were processed

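Whole liver RNA was measured on 1-colour Affymetrix arrays. The deposited values are intensities, linear probe set signals made by the authors (MAS5; GCOS version 1.4.0.036), as the submitters' processing notes list. Their mean after trimming the lowest and highest 2% was 349.492 to 350.133 on every 430A array. No detection calls were used. The number of arrays limits precision.

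An offset of 9.9 (the 10th percentile; 3.8 on 430 2.0) was added before log2. Probe sets at or above the 40th percentile on at least 2 of 9 arrays were tested two-sidedly with limma 3.58.1 (R 4.3.3; lmFit, eBayes with trend) over 4 groups (wildtype, knockout on NTBC, Fah off NTBC, Fah p21 off NTBC), with 5 residual degrees of freedom and Benjamini-Hochberg adjustment over all 15307. All 9 arrays share 1 estimate of spread. Nothing says that replicates came from separate cages or days, so p-values measure only the spread between these mice. That spread also holds the difference of water and NTBC within wildtype and of p21 genotype within the knockouts on NTBC. Fold changes are on the log2(signal + offset) scale, which understates low genes.

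Probe sets were named from the platform annotation, updated through Entrez to GRCm38.p6 symbols (20351 matched; 20380 had 1 symbol, 691 several and 1555 none). The members and lists were chosen with earlier results of these data known. Named are all passing representatives, Fah and Cdkn1a, the members of each list that passed or had the smallest p, and genes 4-fold apart in 1 liver. Got1, Tat, Hpd, Gstz1, Phgdh, Atf4, Tef, Hlf, Nr1d1, Arntl, Nfil3, Per3, Marco, Cxcl10, Psmb8, H2-K1, B2m, H2-Aa, H2-Ab1, Clec4f, Cd3d, Nkg7, Gzmb, Cpa1, Hmgcs1, Apcs, Mt2, Uty, Eif2s3y, Cela2a and Alb were named after their values were seen, as were passing probe sets that are not representatives. On simulated data with the same 15307 probe sets, this test recovered 45% of 2-fold and 98% of 4-fold changes with 13 false calls. There 100 changes of each size were planted in independent normal noise of the fitted spread. The shares hold for that setting and do not say how many real changes were missed. In the real data Serpinb1a, 10.9-fold higher, and Mvk, 4.21-fold lower, did not pass. The 2 array designs were scaled separately and never tested together.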

Additional observations from a re-analysis of the deposited data

Results flagged for a closer look

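The genes here, each by its representative probe set, lay on opposite sides of both wildtype livers on and off NTBC, in every liver. The difference between the 5 livers off NTBC and the 2 knockout livers on NTBC passed in limma. The same values chose the genes, and that choice already sets the livers on and off NTBC apart. The adjusted p values are therefore a description only. All values are log2 off minus on, with SE and limma's adjusted p. Off is the average of the Fah knockout and double knockout group means, each group weighted equally. The comparison was made only for genes the text names, several of them named after their values were seen.

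Of these genes, Limk1 alone passed against wildtype on NTBC, and its order rests on 1 probe set of 1 array design. The other Limk1 set, 1417627_a_at, lay above wildtype both on and off NTBC. That set read 4.6 and 3.6 in wildtype, 16.5 and 13.6 in knockout on NTBC and 120.8 to 212.3 off it. On 430 2.0 the flagged Limk1 set read 81.6 on NTBC against 79.6 and 60.5 off it. The cell cycle genes Ube2c, Ccnd1 and Cks1b had values below both wildtype livers on NTBC without passing, and above them off NTBC, while the G1/S and G2/M lists lay near the level of all genes on NTBC. The difference was 4.13 ± 0.45 for Ube2c (adjusted p = 9.84e-05), 2.11 ± 0.17 for Ccnd1 (adjusted p = 1.62e-05) and 1.45 ± 0.17 for Cks1b (adjusted p = 0.000173). Cks1b, a partner of cyclin-dependent kinases, read 626.1 and 589.3 in wildtype and 344.7 and 464.1 in knockout on NTBC. Off NTBC it read 665.4 to 718.7 in the Fah knockouts and 1496.4 and 2186.0 in the double knockouts. The same order was seen for Acot1 (3.96 ± 0.22, adjusted p = 2.55e-06), Limk1 (2.28 ± 0.23, adjusted p = 5.82e-05), Hsp90aa1 (1.60 ± 0.16, adjusted p = 5.17e-05) and the matrix proteoglycan Dcn (0.77 ± 0.12, adjusted p = 0.00107). Hsp90aa1 read 4492.7 to 5282.9 off NTBC. Dcn read 2458.1, 2637.5, 1833.7 and 2105.2, and 3069.3 to 3873.8 off NTBC.

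The opposite order, above wildtype on NTBC and below it off NTBC, was seen for the clock genes Dbp (-2.77 ± 0.21, adjusted p = 1.32e-05), Nr1d1 (-1.37 ± 0.21, adjusted p = 0.000765) and Tef (-1.03 ± 0.13, adjusted p = 0.000218). Off NTBC, Nr1d1 read 266.5 to 439.1 and Tef 929.5 to 1156.9. Another tested Tef set, 1450184_s_at, read 38.9 and 191.8 in wildtype, 498.9 and 337.6 in knockout on NTBC and 233.7 to 327.5 off it. That set lay above both wildtype livers off NTBC as well, so this order was seen only in the brightest Tef set. H2-K1, a class I heavy chain, differed by -1.37 ± 0.12 (adjusted p = 3.58e-05) and read 3581.9 to 4722.0 off NTBC. Its change from wildtype on NTBC was 0.20 ± 0.15 (adjusted p = 0.479) and did not pass, and it was -0.06 with a common median.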

How the results depend on the processing

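Fah passed under all 18 alternatives tried for it, and no passing probe set changed direction in 411 recomputations, but 215 of these no longer passed. The count of 23 probe sets (11 higher, 12 lower) was 1 without the filter (0 and 1), 7 after quantile normalization (2 and 5), 42 with a common median (11 and 31), 66 with only the 4 arrays of the comparison (37 and 29) and 13 without the trend (9 and 4). These shared 1, 7, 21, 18 and 7 probe sets with the 23. Leaving out 1 array gave 1 to 535 probe sets, 0 to 350 higher and 1 to 185 lower. The lowest came without wildtype replicate 1, on water, and the highest without the third Fah knockout off NTBC. Without wildtype replicate 2 it was 10, without the second Fah knockout off NTBC 3, and without either double knockout off NTBC 7. The cause was not tested. Where a knockout or wildtype array was left out, the lone liver was assumed to vary like the other groups. With an offset at the 25th percentile or none, a filter at the 60th percentile and robust moderation the counts were 24, 17, 19 and 22. Asns (1433966_x_at), Mafk and Vnn1 passed in 13 of 18 alternatives, and the others in 10 or fewer, down to 4. No paired analysis was possible because the wildtype and knockout livers on NTBC share no replicate number. The alternatives on list scaling, on lists without single arrays and on both designs were chosen after seeing the data. Signals near the offset, as for Iffo2, Ube2c and Serpinb1a, limit the size of a fold.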
